A study of Mus musculus with 8 samples.

Results

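Matrix metalloproteinases (MMPs) and their tissue inhibitors (TIMPs) were examined in rib chondrocytes of mice with and without the microRNA gene Mir324. The genes described are 5 metalloproteinases (Mmp2, Mmp3, Mmp9, Mmp13 and Mmp14) and 4 inhibitors (Timp1, Timp2, Timp3 and Timp4). They were chosen by symbol, and each matched 1 identifier, giving 9 of the 52325 genes in the table. Rib cages of 8 individual mice were digested with collagenase to free the costal chondrocytes, and total RNA of the cells was sequenced. The groups were 4 wild-type controls (WT) and 4 Mir324-null mice, 1 library per animal. The sources used here do not give strain, age, sex or how the null allele was made. Levels are given as TPM, a measure of transcript abundance scaled for transcript length, which can be compared between genes but holds no record of sequencing depth.

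Cartilage is mostly extracellular matrix, and its turnover depends on zinc-dependent proteases of the MMP family. These enzymes are made as inactive precursors and are activated by removal of a propeptide. TIMPs bind the active enzymes and block their catalytic zinc. In growth cartilage MMP activity removes collagen and aggrecan where hypertrophic cartilage is replaced by bone, and in arthritis the same enzymes degrade the joint surface.

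In GRCm38 (GENCODE M21) Mmp13 lies at chr9:7272514-7283331 and Mmp3 at chr9:7445822-7455975. Mmp2 lies at chr8:92827291-92853420, Mmp9 at chr2:164940780-164955850 and Mmp14 at chr14:54431612-54445364, all 5 on the plus strand. Timp1 lies at chrX:20870166-20874735 and Timp3 at chr10:86300372-86349506 on the plus strand, and Timp2 at chr11:118301069-118355740 and Timp4 at chr6:115241892-115252205 on the minus strand. Apart from Mmp3 and Mmp13, each member is thus on a chromosome of its own.

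The missing microRNA has 2 mature forms, listed by RefSeq on chromosome 11 of GRCm38.p6 (plus strand), at chr11:70012060-70012082 for the 5p form and chr11:70012095-70012114 for the 3p form. They are shown because a member could be a direct target. Capitals mark the seed, bases 2 to 8, through which a microRNA pairs with its targets.
mmu-miR-324-5p: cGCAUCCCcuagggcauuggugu
mmu-miR-324-3p: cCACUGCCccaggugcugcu
A match to a seed was present in the longest annotated 3′ UTR of 2 of the 9 members. Mmp2 held 1 match to each form, at base 214 and base 378 of a UTR of 755 bases. Timp4 held 1 match to the 3p form, at base 1338 of 4394. The matches are shown in 29 bases of the UTR, with the 7 paired bases in capitals.
Mmp2, 5p form: gcccaccctagGGGATGCttggatatttg
Mmp2, 3p form: gcctggcatggGGCAGTGgggtacaggtg
Timp4, 3p form: tggaaggctctGGCAGTGagactccaagt
The other 7 members held none of these 7-base matches. Among 11320 tested genes with an annotated 3′ UTR, 9.36% held a 5p match and 17.6% a 3p match. A match of this kind describes the letters and does not show that the site is used.

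All 8 libraries carried cartilage transcripts. The 9 chondrocyte markers, among them Col2a1, Acan and Sox9, summed to between 43054 and 53484 TPM in WT mice and between 41542 and 54704 TPM in nulls. Some defining markers of other cells were at or near 0. Adgre1, a macrophage receptor, was at 0.0442 TPM or less in every library, and Myh4, a myosin of skeletal muscle, was listed at 0. Other markers were present. The summed markers of macrophages were 43.7 to 61.7 TPM in WT against 59.7 to 86.2 TPM in nulls, and of endothelium 7.91 to 22.5 TPM against 19.8 to 27.7 TPM. Most of the macrophage sum was Cd14, at 27.3 to 61.0 TPM, and Cd68, at 13.9 to 24.2 TPM. The 6 erythroid markers summed to 111 to 1082 TPM in WT against 281 to 1039 TPM in nulls. The 8 neutrophil markers summed to 1.42 to 3.79 TPM in WT against 3.23 to 6.40 TPM in nulls. The part of these cells in the results was not tested. Null replicate 3 stood apart. Its mean rank correlation with the other libraries was 0.864, against 0.895 to 0.914 for the rest, and pseudogenes took 25.0% of its TPM, against 17.7% to 19.1% in the others. The fold change of every tested member is therefore given with and without it, and the plot of fold changes shows both for the other named genes. No test was made of the list of heat shock and immediate early genes, which respond to cell dissociation. Its 8 genes, among them Atf3, Hspa1b, Egr1 and Fos, summed to between 10052 and 13901 TPM in WT mice and between 5522 and 9417 TPM in nulls, with no overlap of the sums. All 8 had a negative log2 fold change, where 60.1% of all genes did. Hspa1a stood at 1150 to 1556 TPM in WT mice and 604 to 1044 TPM in nulls. Hspa1b stood at 1906 to 2730 TPM and 1109 to 1769 TPM. These genes did not overlap between the groups, as was so for 2.68% of all genes, and neither passed (limma adjusted p = 0.981). Others, such as Fos and Jun, overlapped.

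Gelatinases, a stromelysin, a collagenase and the inhibitors spanned more than 3 orders of magnitude in level. Mmp2, gelatinase A, which cleaves denatured collagen, was the most abundant member, with a mean of 538 TPM over the 8 libraries. It was followed by Timp1 (356 TPM), Timp2 (216 TPM), Mmp3 (197 TPM) and Timp3 (125 TPM). Mmp14 (40.7 TPM), Mmp13 (13.4 TPM) and Mmp9 (5.40 TPM) came lower, and Timp4 was near 0 (0.201 TPM). Mmp2 ranked 261 of 13910 tested genes by mean level, Mmp13 ranked 5380 and Mmp9 ranked 8602. Some neighbours in this order were not separated. Mmp2 exceeded Timp1 in 7 of 8 libraries, with overlapping ranges. Timp2 exceeded Mmp3 in 5 of 8 libraries, and Mmp3 exceeded Timp3 in 6 of 8. The remaining neighbours did not overlap in range. The lowest Timp1 value, 261 TPM, lay above the highest Timp2 value, 247 TPM, and the lowest Mmp13 value, 9.38 TPM, lay just above the highest Mmp9 value, 9.15 TPM.

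**Figure D1:**
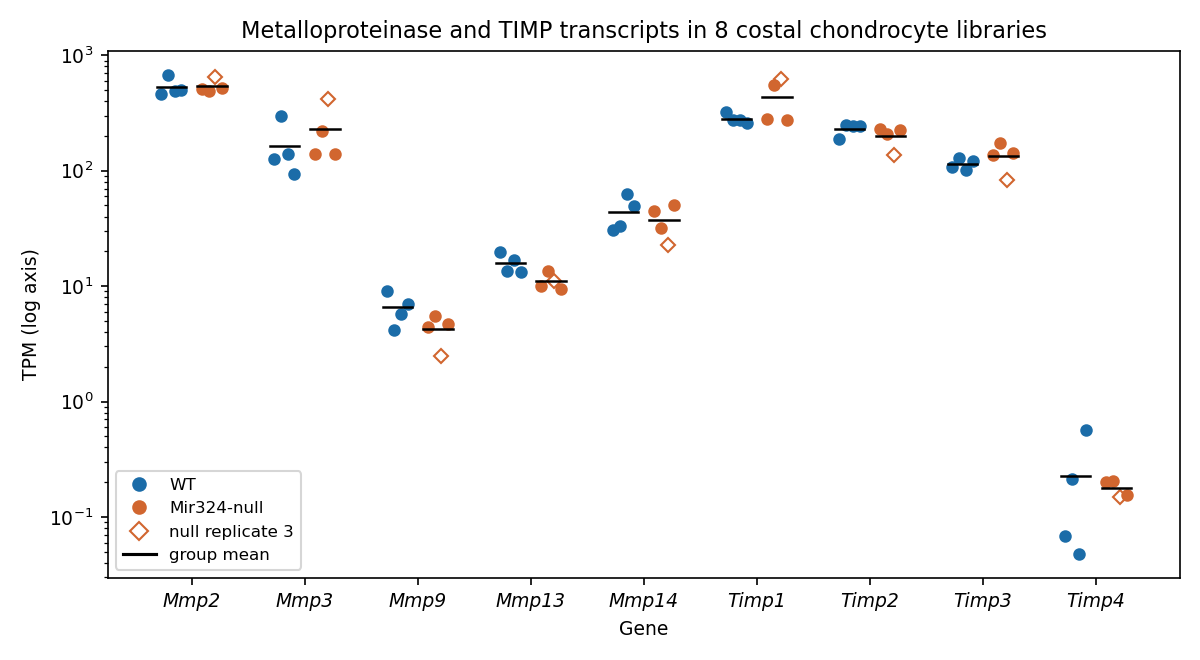
TPM (log axis) of the 9 members in each library, with WT in blue and Mir324-null in orange. Each symbol is 1 animal, the open diamond is null replicate 3, and the bar is the group mean. Mmp2 and Timp1 sit at the top and Timp4 lies below 1 TPM in every library. The WT and null points of each member overlap.

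No member passed the test between genotypes. The 8 members at 1 TPM or more in at least 4 libraries were tested with limma among 13910 genes, and 0 of the 8 had an adjusted p under 0.05, where 3 genes of all tested did (0.0216%). At an unadjusted p under 0.05 there was 1 of 8, Mmp13, against 4.15% of all genes, and 2.37% of all genes with the lower level in nulls. The null and WT values overlapped for all 8, where 2.68% of all genes did not overlap. The smallest adjusted p among the members was 0.981. The 95% limits of the estimate were both less than 1 log2 unit from 0 for 5 of the 8 members, and for 79.9% of all genes, on the log2(TPM + 1) scale. The data are from bulk RNA, in which fewer cells of a type and less RNA per cell cannot be told apart.

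Mmp13, the collagenase that cleaves type II collagen and that marks terminal hypertrophic chondrocytes, had the smallest p of the members. It stood at 19.6, 13.5, 16.7 and 13.3 TPM in the 4 WT animals and at 10.1, 13.4, 11.2 and 9.38 TPM in null replicates 1 to 4. The null values were the lower ones, with 3 of 4 below every WT value and null replicate 2 inside the WT range by a narrow margin. The group means were 15.8 ± 3.0 TPM in WT mice and 11.01 ± 1.76 TPM in nulls (± SD, n = 4 per genotype). Null against WT, the log2 fold change (negative where nulls were lower) was -0.48 with SE 0.17 and a 95% interval of -0.87 to -0.08, and it did not pass over all genes (limma unadjusted p = 0.0231, adjusted p = 0.981). Leaving out any 1 library kept it between -0.57 and -0.37. Without null replicate 3 it was -0.49. Scaling by the median of ratios, which moved the median of all genes from -0.05 to 0.00, gave -0.41 for Mmp13 with an unadjusted p of 0.0571. The dissociation stress sum was also lower in nulls. In replicates 1 to 4 it was 11221, 10052, 10098 and 13901 TPM in WT mice and 9385, 6051, 5522 and 9417 TPM in nulls. The part of the stress response in the Mmp13 result was not tested. Of the 7 hypertrophic markers, 5 were tested, 1 with a positive and 4 with a negative log2 fold change, where 60.1% of all genes were negative. The list summed to between 355 and 532 TPM in WT mice and between 282 and 441 TPM in nulls. Most of that sum was Vegfa, at 132 to 283 TPM, and Spp1, at 92.9 to 147 TPM. Spp1, osteopontin, averaged 124 TPM in WT mice and 101 TPM in nulls, with a log2 fold change of -0.27 (limma adjusted p = 0.981). Col10a1, the collagen of hypertrophic cartilage, was the one with a positive value. It ranged from 17.0 to 152 TPM in WT mice and from 23.7 to 104 TPM in nulls. For this pair Pearson's r was -0.51 over 8 libraries (exact permutation p = 0.199, adjusted p = 0.399 over 34 pairs) and Spearman's rho was -0.67 (exact permutation p = 0.0831, adjusted p = 0.297), with r = -0.14 without WT replicate 1 and null replicate 4, the farthest from the Mmp13 median. The pair of Mmp13 with Col10a1 was not planned in advance, and the part of hypertrophic cells in the Mmp13 values was not tested.

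Mmp9, gelatinase B, is made by osteoclasts and neutrophils and in growth plate cartilage. It stood at 9.15, 4.18, 5.76 and 7.01 TPM in the 4 WT animals and at 4.42, 5.55, 2.47 and 4.68 TPM in the null replicates. WT replicate 1 was highest and null replicate 3 lowest, while the other 6 values were mixed. The means were 6.52 ± 2.10 TPM in WT mice and 4.28 ± 1.3 TPM in nulls (± SD, n = 4 per genotype). Its log2 fold change was -0.51 with a 95% interval of -1.12 to 0.10 (limma adjusted p = 0.981), and -0.32 without null replicate 3. Of the 7 osteoclast markers, 2 were tested, and their list summed to between 26.5 and 41.3 TPM in WT mice and between 33.3 and 35.7 TPM in nulls. Most of that sum was Ctsk, cathepsin K, while Calcr, the calcitonin receptor, was at 0.0362 TPM or less in every library. Acp5, the tartrate-resistant phosphatase of osteoclasts, was also highest in WT replicate 1, at 9.06 TPM. It stood between 5.09 and 7.98 TPM in the other libraries. Ctsk was instead lowest in WT replicate 1, at 16.2 TPM, against 19.9 to 33.1 TPM in the others. For Mmp9 with Acp5, Pearson's r was 0.56 over 8 libraries (exact permutation p = 0.146, adjusted p = 0.332). Spearman's rho was 0.55 (exact permutation p = 0.171, adjusted p = 0.446). That r was 0.94 without WT replicate 1 and null replicate 3, the farthest from the Mmp9 median. The pair was not planned in advance and did not pass the adjustment. The neutrophil list was low throughout. In replicates 1 to 4 it summed to 3.69, 3.13, 3.79 and 1.42 TPM in WT mice and 4.28, 4.60, 6.40 and 3.23 TPM in nulls. The part of osteoclasts and neutrophils in the Mmp9 values was not tested.

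Mmp2 was close between the genotypes. It stood at 465, 678, 493 and 495 TPM in WT mice and at 506, 489, 649 and 524 TPM in nulls, replicates 1 to 4. WT replicate 2 and null replicate 3 were high, and the other 6 libraries lay within 465 to 524 TPM. For the comparison of genotypes, the log2 fold change was 0.03 with a 95% interval of -0.32 to 0.38 (limma adjusted p = 0.992), and -0.06 without null replicate 3. No difference in level was detectable for this gene, the only tested member with seed matches to the missing microRNA.

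Mmp14, a membrane-anchored protease that activates the Mmp2 precursor on the cell surface, stood at 30.6, 33.3, 62.5 and 49.7 TPM in WT mice and at 44.3, 31.7, 22.6 and 50.9 TPM in nulls, replicates 1 to 4. The libraries with the most Mmp2, WT replicate 2 and null replicate 3, were below the Mmp14 mean. For Mmp2 with Mmp14, r was -0.48 over 8 libraries (exact permutation p = 0.24, adjusted p = 0.44 over 34 pairs) and rho was 0.0 (exact permutation p = 1, adjusted p = 1), and r was 0.61 without those 2 libraries. Between genotypes the log2 fold change was -0.24 with a 95% interval of -0.94 to 0.47 (limma adjusted p = 0.981), and -0.02 without null replicate 3. With array quality weights, which give less weight to variable libraries, its direction turned, at 0.02. Its order over the libraries resembled that of Col1a1, the type I collagen of perichondrium and bone, at 320, 130, 1065 and 563 TPM in WT mice and 576, 369, 181 and 627 TPM in nulls. For this pair Pearson's r was 0.85 over 8 libraries (exact permutation p = 0.006, adjusted p = 0.0614 over 34 pairs) and Spearman's rho was 0.83 (exact permutation p = 0.0154, adjusted p = 0.105). Without WT replicate 3 and null replicate 3, the libraries farthest from the Mmp14 median, r was 0.72. The pair was chosen after its values were seen and did not pass the adjustment. The 8 perichondrium and fibroblast markers summed to between 1395 and 4419 TPM in WT mice and between 1559 and 3136 TPM in nulls. How far such cells set the Mmp14 level was not tested.

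Mmp3, stromelysin 1, which cleaves proteoglycans and activates other MMP precursors, varied more between animals than any other tested member. It stood at 126, 296, 139 and 92.8 TPM in WT mice and at 141, 222, 420 and 141 TPM in nulls, replicates 1 to 4. Its coefficient of variation was 55.5% within WT and 57.0% within nulls, and the highest library had 4.52 times the level of the lowest. WT replicate 2 and null replicates 2 and 3 were the high libraries, so high values occurred in both genotypes. Null against WT, the log2 fold change was 0.48 with a 95% interval of -0.53 to 1.5 (limma adjusted p = 0.981). It was 0.15 without null replicate 3, 0.82 without WT replicate 2 and 0.097 with array quality weights.

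Mmp3 lies in a cluster of 10 MMP genes that spans 427 kb of mouse chromosome 9, at chr9:7272514-7699585 in GRCm38 (GENCODE M21). Mmp13 is at the start of this cluster, and 4 of its 10 genes passed the filter on low values: Mmp13, Mmp12, Mmp3 and Mmp10. Mmp10, stromelysin 2, lies next to Mmp1a and stood at 14.3, 23.2, 13.8 and 8.05 TPM in WT mice and 10.3, 14.0, 20.4 and 11.1 TPM in nulls. Mmp12, the macrophage elastase, stood at 12.2, 17.1, 8.42 and 8.80 TPM in WT mice and 10.9, 20.8, 17.5 and 10.1 TPM in nulls. Mmp1a, an interstitial collagenase below the filter, ranged from 0.452 TPM in WT replicate 4 to 2.69 TPM in null replicate 3. WT replicate 2 and null replicate 3 were above the mean for all 4 of Mmp3, Mmp10, Mmp12 and Mmp1a. Mmp13, their neighbour, was near its mean in WT replicate 2 and below it in null replicate 3.

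These likenesses were measured over the 8 libraries, which share the TPM scale and the composition of null replicate 3. For Mmp3 with Mmp1a, Pearson's r was 0.95 (exact permutation p = 0.00114, adjusted p = 0.0388 over 34 pairs) and Spearman's rho was 0.90 (exact permutation p = 0.00456, adjusted p = 0.0821). That r was 0.90 without null replicate 3 and 0.93 without null replicate 3 and WT replicate 2. For Mmp3 with Mmp10, r was 0.87 (exact permutation p = 0.00533, adjusted p = 0.0614) and rho was 0.67 (exact permutation p = 0.0831, adjusted p = 0.297), with r = 0.66 when the same 2 libraries were left out. For Mmp3 with Mmp12, r was 0.82 (exact permutation p = 0.0146, adjusted p = 0.0658) and rho was 0.71 (exact permutation p = 0.0576, adjusted p = 0.28), with r = 0.82 when they were left out. For Mmp3 with Mmp13, r was -0.22 (exact permutation p = 0.597, adjusted p = 0.7) and rho was -0.29 (exact permutation p = 0.501, adjusted p = 0.83), with r = -0.11 when they were left out. The pairs with Mmp10, Mmp12 and Mmp1a were chosen after the values were seen. The adjustment over 34 pairs does not cover that choice, also for the pair with Mmp1a, which is below the filter. Reads of the similar Mmp3 and Mmp10 transcripts, and of Mmp1a and Mmp1b, could be shared in counting, which was not tested.

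**Figure D2:**
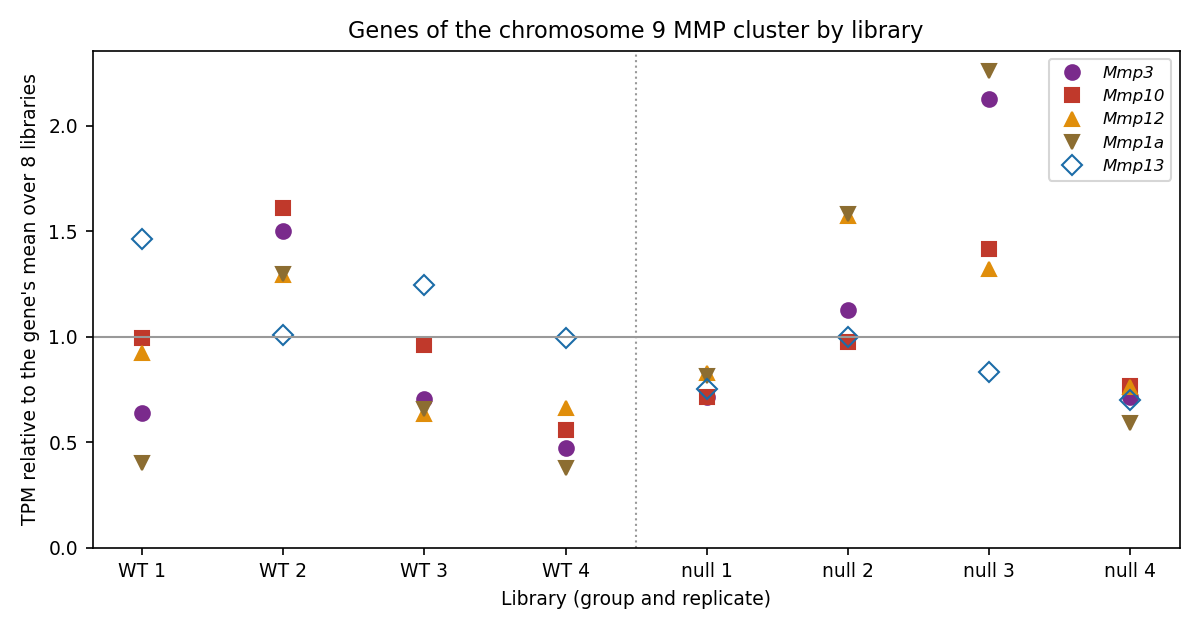
TPM of 5 genes of the chromosome 9 cluster in each library, divided by that gene's mean over the 8 libraries. The dotted line separates WT from Mir324-null. Mmp3, Mmp10, Mmp12 and Mmp1a are all above their mean in WT replicate 2 and null replicate 3, while Mmp13 (open diamonds) is highest in WT replicate 1.

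The promoters of Mmp3 and Mmp13 are shown because the genes share this cluster and differed in pattern. They are 300 bases from 250 before to 50 after the annotated start, from RefSeq (GRCm38.p6, plus strand). Mmp3 is at chr9:7445572-7445871 and Mmp13 at chr9:7272264-7272563. Capitals mark matches to TGANTCA, the letters bound by AP-1, the dimer of Fos and Jun proteins, searched on both strands (the motif is its own reverse complement).
Mmp3: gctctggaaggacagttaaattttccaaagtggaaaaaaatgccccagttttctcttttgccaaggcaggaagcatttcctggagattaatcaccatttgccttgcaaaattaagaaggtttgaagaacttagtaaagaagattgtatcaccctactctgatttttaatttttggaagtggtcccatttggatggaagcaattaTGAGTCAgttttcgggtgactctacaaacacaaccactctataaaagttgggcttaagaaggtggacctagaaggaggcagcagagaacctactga
Mmp13: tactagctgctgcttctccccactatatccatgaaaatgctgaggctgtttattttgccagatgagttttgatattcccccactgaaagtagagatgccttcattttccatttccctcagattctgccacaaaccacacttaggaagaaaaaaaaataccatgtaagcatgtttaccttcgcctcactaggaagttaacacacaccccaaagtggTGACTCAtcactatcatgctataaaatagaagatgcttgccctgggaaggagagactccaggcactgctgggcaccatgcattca
Each held 1 match, starting at base -46 for Mmp3 and base -35 for Mmp13. Promoters were found for 7 of the 9 members, all but Mmp2 and Mmp9, and the other 5 held no match. Mmp10 held 1 match, at base -63. Of the Mmp12 promoters, the one at chr9:7344147-7344446 held none and the one at chr9:7347124-7347423 held 1, at base -44. Of 32851 promoters of this length, 7.81% held one. The letters TGNGGT, a loose form of the site of RUNX factors with any base at N, were searched on both strands. A match therefore need not be a RUNX site. Mmp13 held 2 matches and Mmp3 held 0, where 45.8% of all promoters held at least 1. Mmp14, Timp3 and Timp4 held 1 each, and Timp1 and Timp2 held 0. Fos stood at 1262 to 1855 TPM in WT mice and at 631 to 1517 TPM in nulls, and Jun at 1029 to 1608 TPM and 385 to 1034 TPM. For both, null replicate 3 was lowest and null replicate 2 next lowest. How these levels relate to Mmp3 or Mmp13 was not tested.

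Among the inhibitors, Timp1, an inducible secreted inhibitor, had the largest fold change when all 8 libraries were used. It stood at 320, 273, 273 and 261 TPM in WT mice and at 282, 547, 619 and 274 TPM in nulls, replicates 1 to 4. Null replicates 2 and 3 lay far above the other 6 libraries, and null replicates 1 and 4 lay within the WT range. The means were 282 ± 26.0 TPM in WT mice and 431 ± 179 TPM in nulls (± SD, n = 4 per genotype), and the coefficient of variation was 9.24% in WT against 41.5% in nulls. On the log2 scale the difference was 0.52 with a 95% interval of -0.12 to 1.16 (limma adjusted p = 0.981). It was 0.31 without null replicate 3 and 0.14 with array quality weights. The dissociation stress list was lowest in the same 2 libraries, at 6051 and 5522 TPM, and its part was not tested. A list of 8 inflammatory genes, among them Il6, Cxcl1 and Ptgs2, summed to between 2187 and 2984 TPM in WT mice and between 2058 and 2892 TPM in nulls. Most of that sum was Cxcl1, at 1395 to 2316 TPM, and the part of inflammation in the Timp1 values was not tested.

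Timp2, which inhibits MMPs and also takes part with Mmp14 in activating the Mmp2 precursor, stood at 189, 247, 243 and 245 TPM in WT mice and at 231, 208, 136 and 227 TPM in nulls, replicates 1 to 4. Null replicate 3 was lowest, and WT replicate 1 was below the other 3 WT libraries. Its log2 fold change was -0.23 with a 95% interval of -0.66 to 0.21 (limma adjusted p = 0.981). It was -0.05 without null replicate 3 and -0.03 with array quality weights. For Timp1 with Timp2, r was -0.82 over 8 libraries (exact permutation p = 0.0214, adjusted p = 0.0731 over 34 pairs) and rho was -0.88 (exact permutation p = 0.00724, adjusted p = 0.0821). That r was -0.58 without null replicate 3 and -0.95 without null replicates 2 and 3, the farthest from the Timp1 median. The pair did not pass the adjustment.

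Timp3, the inhibitor that binds to the matrix and also blocks aggrecanases, stood at 108, 128, 102 and 122 TPM in WT mice and at 138, 175, 82.8 and 141 TPM in nulls, replicates 1 to 4. Null replicates 1, 2 and 4 lay above every WT library and null replicate 3 below every one. For the comparison of genotypes, the log2 fold change was 0.18 with a 95% interval of -0.33 to 0.68 (limma adjusted p = 0.981). Without null replicate 3 it was 0.39 (limma unadjusted p = 0.017, adjusted p = 0.956), and with array quality weights 0.33. In that comparison the remaining null values lay above all WT values, as they did for 3.56% of all genes tested, and 5.06% of all genes had an unadjusted p under 0.05.

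Timp4, an inhibitor best known from heart and other muscle, was below the filter on low values. It was between 0.0479 and 0.572 TPM in WT mice and between 0.148 and 0.203 TPM in nulls, and its highest value was in WT replicate 4. The test without a filter gave a log2 fold change of -0.04 (limma adjusted p = 0.969). Each TIMP gene overlaps the span of another gene. Syn1, on the strand opposite Timp1, averaged 2.26 TPM, Syn3, opposite Timp3, averaged 0.610 TPM, and Syn2, opposite Timp4, averaged 0.165 TPM. Cep295nl, on the strand of Timp2, averaged 3.72 TPM. No source used here says whether strand was used in counting, and reads from the overlaps cannot be told apart. The genes overlapping Timp1, Timp2 and Timp3 were low beside them, while Syn2 was of the same order as Timp4.

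**Figure D3:**
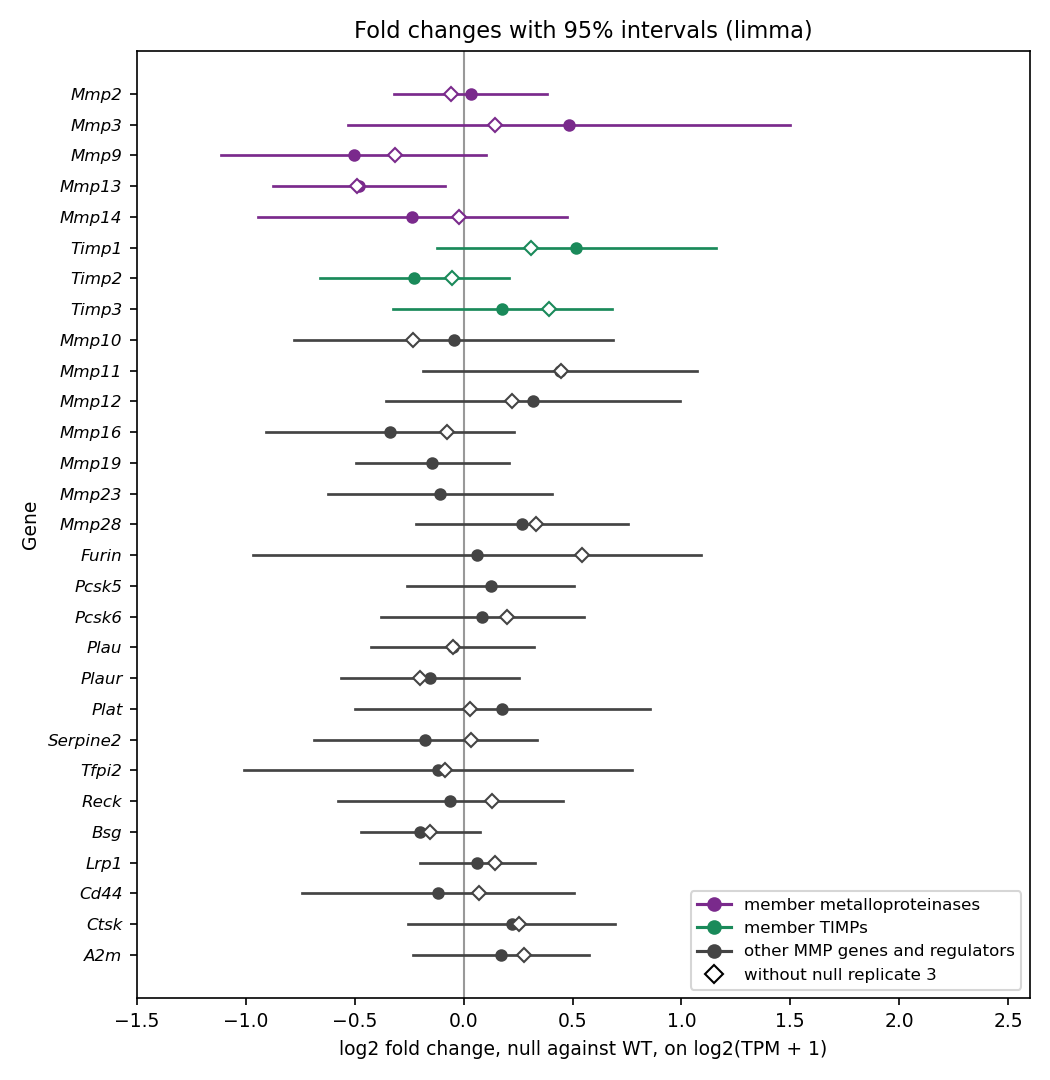
The log2 fold change (null against WT, on log2(TPM + 1)) of each tested member and of the other tested MMP genes and regulators. Filled circles and lines are the limma estimates with 95% intervals, and open diamonds the estimates without null replicate 3 for the named genes. The interval excludes 0 for Mmp13 alone, and no gene shown passed over all genes.

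Summed TPM of the inhibitors and of the proteases were of similar size. The 5 metalloproteinases summed to 650, 1026, 717 and 658 TPM in WT mice and to 705, 762, 1105 and 730 TPM in nulls, replicates 1 to 4. The 4 TIMPs summed to 617, 648, 618 and 628 TPM in WT mice and to 651, 930, 838 and 642 TPM in nulls. The TIMP sum varied little in WT. Null replicates 1, 2 and 3 lay above every WT library, replicates 2 and 3 by a wide margin, and null replicate 4 lay inside the WT range. The ratio of the TIMP sum to the MMP sum was 0.849 ± 0.151 in WT and 0.945 ± 0.196 in nulls (± SD, n = 4 per genotype), ranging from 0.632 in WT replicate 2 to 1.22 in null replicate 2. Mmp2 made up 58.7% to 75.2% of the metalloproteinase sum and Mmp3 14.1% to 38.0%. Timp1 made up 41.5% to 51.8% of the TIMP sum in WT, and 58.9% and 73.9% in null replicates 2 and 3. These are shares of RNA and do not measure protein or enzyme activity.

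**Figure D4:**
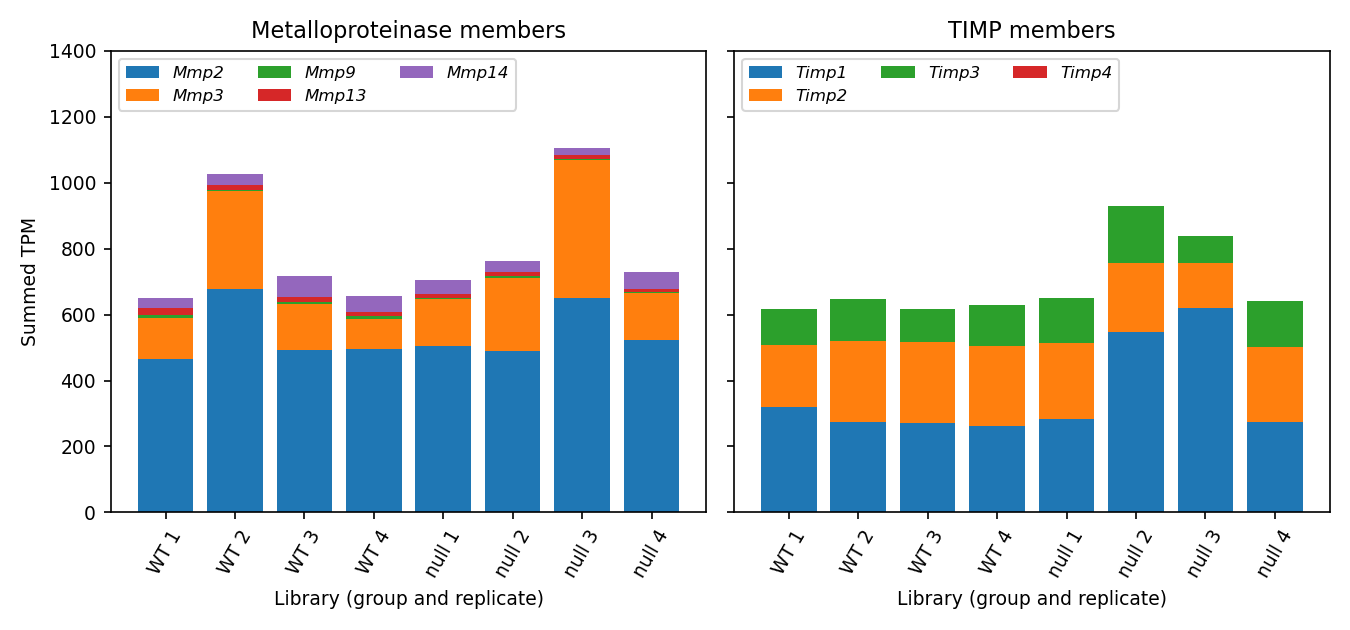
Stacked TPM of the 5 metalloproteinase members (left) and the 4 TIMP members (right) in each library, both axes starting at 0. Mmp2 and Mmp3 make up most of the protease sum, which is highest in WT replicate 2 and null replicate 3. The TIMP sum is highest in null replicates 2 and 3, where Timp1 takes the larger share.

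The rest of the MMP family was low in these cells. Of 18 other MMP genes, 7 passed the filter on low values, and Mmp7, matrilysin, was listed at 0 in all 8 libraries. None of the 7 passed the test: 3 were above 0 and 4 below, where 39.9% of all genes were above 0 and 60.1% below. Their median log2 fold change was -0.046, that of all genes was -0.055, and the smallest adjusted p was 0.981. None had an unadjusted p under 0.05. The smallest p was that of Mmp11, stromelysin 3, at 1.18 ± 1.02 TPM in WT mice and 1.78 ± 0.24 TPM in nulls (± SD, n = 4 per genotype), with a log2 fold change of 0.44 (limma adjusted p = 0.981). Mmp16, a second membrane-anchored member, was the most abundant of the 18, at 19.5 ± 0.91 TPM in WT mice and 16.0 ± 5.21 TPM in nulls (± SD, n = 4 per genotype). Its log2 fold change was -0.34, and -0.08 without null replicate 3, where it stood at 8.40 TPM. Mmp28, epilysin, had 0.27, Mmp12 had 0.32 and Mmp10 had -0.05, the last -0.23 without null replicate 3.

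Genes that activate, inhibit or clear MMPs were more abundant. Of 15 listed, 14 were tested with limma and 0 passed, 7 of them above 0 and 7 below, around a median log2 fold change of 0.0059. The smallest p of the list was that of Bsg, described below (limma adjusted p = 0.981). None had an unadjusted p under 0.05. Serpine2, protease nexin 1, an inhibitor of urokinase and thrombin, was the most abundant at 518 TPM over the 8 libraries, with a log2 fold change of -0.18, and 0.03 without null replicate 3. Plau, the urokinase gene, averaged 137 TPM with a log2 fold change of -0.05, Plaur, its receptor, had -0.16, and Plat, the tissue-type activator, had 0.18, and 0.03 without null replicate 3. Plg, their substrate, was below the filter at 0.131 to 3.63 TPM.

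The remaining regulators did not pass either, and the intervals of some were wide. Furin, a convertase that activates Mmp14, stood at 36.1, 68.2, 55.8 and 51.6 TPM in WT mice and at 78.1, 77.0, 19.2 and 72.3 TPM in nulls, replicates 1 to 4. Null replicates 1, 2 and 4 lay above every WT library and null replicate 3 below them all. Its log2 fold change was 0.06 with a 95% interval of -0.97 to 1.09, and 0.54 without null replicate 3 (limma unadjusted p = 0.0304, adjusted p = 0.956). As given for Timp3, 5.06% of all genes were under 0.05 in that comparison. Reck, a membrane-anchored inhibitor of MMPs, had -0.06, and 0.13 without null replicate 3. Bsg, an inducer of MMP synthesis, had -0.20. Lrp1, the receptor that takes up MMPs with their inhibitors, had 0.06, A2m, a protease trap of plasma, had 0.17, and Cd44, a hyaluronan receptor that docks Mmp9, had -0.12, and 0.07 without null replicate 3. Pcsk6, another convertase, had 0.09, and 0.20 without it. Tfpi2, a Kunitz inhibitor, had -0.12, and Ctsk had 0.22. The direction of Reck turned positive under the median of ratios, at 0.00445, and when rescaled to protein-coding genes, at 0.019. That of Plau did so at 0.0213 and 0.0361, and that of Mmp10 at 0.0248 and 0.0388.

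Genes whose levels were most like each tested member were sought by Pearson's r of log2(TPM + 1) over the 8 libraries, among 11049 protein-coding genes. With so many genes and 8 libraries, high values occur for unrelated genes, and no shared function is implied. For Mmp3 they were Jagn1 (r = 0.99), Kti12 (0.99) and Rrs1 (0.98). For Timp2 they were Wls (1.0), Gnb1 (0.99) and Adgrg6 (0.99). Mmp14 was most like Dkk3 (0.98), Adamts6 (0.98) and Mfap4 (0.97), of which Mfap4 encodes a microfibril-associated protein. Mmp13 was most like Krt16 (0.97), Synpo2 (0.97) and Egln3 (0.96). Timp1 was most like Timm9, Tcf15 and Dopey2 (0.98 each), and Timp3 like Inf2 (0.98), Nipal2 (0.98) and Zfp398 (0.97). Mmp9 was most like Zfp799 (0.96), Adnp2 (0.95) and Stx3 (0.95), and Mmp2 like Stxbp5 (0.94), Nhp2 (0.94) and Ccdc115 (0.93). No member was among the 3 genes most like another member.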

How the data were processed

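RNA of costal chondrocytes from 8 mice was read from 1 table with 1 column per animal. The authors' deposited values are TPM, called length-scaled in the file. With 273 repeated identifiers counted once, each column summed to 1000000. Null replicate 3 was entered under the unit "other" only because its sum with repeats was too high; it is TPM as deposited. Kallisto and DESeq2 are named without versions, and the human build GRCh38, per the submitters' processing notes, although the identifiers are mouse. The transcriptome used is thus not known. Of 52325 identifiers, 52220 matched GENCODE M21 (GRCm38), which gave positions and biotypes.

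The design assumed a count test if counts were present. The table held TPM, so limma 3.58.1 in R 4.3.3 was fitted to log2(TPM + 1), genotype as the only term, trended prior variance, over 13910 genes at 1 TPM or more in at least 4 libraries, with Benjamini-Hochberg adjustment at 0.05. Such fold changes understate those of low genes. TPM keeps no depth, so no counting interval is given. The fit was tested on simulated data. Correlations used exact permutation over the 8 libraries, two-sided, adjusted over 34 pairs, 28 of them pairs of tested members. Alternatives were another pseudocount, other filters, 2 scalings, the replicate block, array quality weights, a covariate from Xist and Y-linked genes, and leaving out each library. Every member is named. Of the other MMP genes and regulators, those at a mean of 10 TPM or more and the 4 with the smallest p of each list are named. 1 regulator listed in the design is not reported here. For likeness, the 3 genes with the highest r are named. The members and lists were chosen with earlier results of these data known.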

Additional observations from a re-analysis of the deposited data

Results flagged for a closer look

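In 56 groups of 4 libraries (9 members, 18 other named genes and the ratio of TIMP to MMP sums, in each genotype), 5 values stood far from the other 3 of their group. Chance alone flags about 1 in 20 such groups. Mmp2 in WT replicate 2 was at 678 TPM, above 465 to 495 TPM in the other WT libraries. Timp2 in WT replicate 1 was at 189 TPM, below 243 to 247 TPM. Bsg in WT replicate 2 was at 159 TPM, below 177 to 180 TPM. Furin in null replicate 3 was at 19.2 TPM, below 72.3 to 78.1 TPM in the other null libraries. Mmp11 in WT replicate 4 was at 2.71 TPM, above 0.518 to 0.824 TPM.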

How the results depend on the processing

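No member passed limma under any alternative, and their smallest adjusted p was 0.612, with array quality weights. The number of genes called, 3, was 5 with a pseudocount of 0.1, 0 with no filter, with a mean of at least 1 TPM, rescaled to protein-coding genes, with the replicate block and with the Xist covariate, and 2 to 7 leaving out 1 library. The labels do not say whether the replicate numbers pair the animals. To look for pairing, the mean of its genotype was first subtracted from each gene. What remained correlated between same-numbered libraries at -0.0385, 0.114, -0.0474 and 0.108. On this measure 2 of 4 correlated best with their own number, which does not settle it. Other settings turned the direction of some values that had not passed, and the cause was not tested: Mmp10, Plau and Reck with the median of ratios (0.0248, 0.0213, 0.00445) and rescaled to protein-coding genes (0.0388, 0.0361, 0.0190), Mmp14, Plat, Serpine2 and Reck with array weights (0.0174, -0.197, 0.0679, 0.163), and Mmp2 with the covariate (-0.0418). Leaving out 1 library moved Mmp2 from -0.0579 to 0.153, Mmp10 from -0.286 to 0.187, Furin from -0.113 to 0.544, Pcsk6 from -0.0106 to 0.254, Plau from -0.194 to 0.0639, Plat from -0.00422 to 0.335, Serpine2 from -0.295 to 0.0345, Tfpi2 from -0.496 to 0.145, Reck from -0.179 to 0.13 and Cd44 from -0.311 to 0.0714. Without Timp1 the TIMP to MMP ratio was 0.466 in WT and 0.432 in nulls, without Mmp2 2.96 and 2.91, and without 1 library 0.814 to 0.922 and 0.854 to 1.01. TPM hold no depth, so precision rests on 4 animals a group.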
